A study of Mus musculus with 12 samples.

Results

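Stromal cells of the aorta were compared between mice given methazolamide late, after disease was established, and untreated diseased mice. Stromal here means the barcodes left once those with leukocyte or fat cell genes were removed. They held the endothelial, fibroblast and smooth muscle cells that build the vessel wall. Cells that met none of the marker rules given below were 34.1% of them in AS and 21.5% in MTZ-treated. Cells were taken from the MTZ-treated and the AS gene expression libraries. A barcode was kept when it held more than 200 genes, more than 1000 unique molecular identifiers (UMIs, each standing for 1 captured RNA molecule), less than 10% mitochondrial UMIs and 0 UMIs of 7 genes of leukocytes and fat cells (Ptprc, Cd79a, Cd74, Cd3d, Lyz2, Adipoq and S100a8). This left 5552 cells, 702 from AS and 4850 from MTZ-treated, of 27846 barcodes deposited for these libraries and 73666 in the whole series. Cells were then placed in compartments by their own markers: endothelial with at least 2 UMIs of Pecam1 and Cdh5 together, fibroblast with at least 3 of Dcn and Col1a1, smooth muscle with at least 2 of Myh11 and Cnn1. Cells that met more than 1 rule were left out of the compartments.

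Every group consisted of male C57BL/6J mice labelled ApoE-/-, 8 weeks old at the start, with 18 mice in a group, and the aortas of 6 of them were pooled into 1 library. AS mice received a high-fat diet with 1% cholesterol and 10% fat for 24 weeks and saline by mouth. MTZ-treated mice received the same diet for 24 weeks, saline up to week 12 and methazolamide (MTZ) at 25 mg per kg every other day from week 13 to week 24. Mice labelled MTZ-preventive received methazolamide with that diet for all 24 weeks, and Healthy mice received normal food, and their levels stand beside the comparison only as further values. With 1 library per group there was no replicate: the 95% intervals given here cover the counting of UMIs only, no test between the groups was possible, and differences between mice, dissections or library preparations cannot be told apart from the treatment.

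Methazolamide blocks carbonic anhydrases, zinc enzymes that interconvert carbon dioxide and bicarbonate. In an artery, endothelial cells line the lumen, contractile smooth muscle cells make up the media, and fibroblasts lie in the adventitia, which borders on perivascular fat. Metallothioneins are small cysteine-rich proteins that bind zinc and copper, and their genes are switched on by metals and by stress hormones through elements in their promoters.

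The libraries differed in size and in what had to be removed. AS held 6908 deposited barcodes and MTZ-treated 20938, of which 2201 and 7215 passed the limits on genes, UMIs and mitochondrial share. Stromal cells were 31.9% of the passing AS barcodes and 67.2% of the passing MTZ-treated barcodes. In AS most barcodes were dropped because of S100a8 (924 barcodes), Lyz2 (508) and Adipoq (416), and in MTZ-treated because of Cd74 (1630), Lyz2 (622) and Ptprc (338). The stromal cells carried 1338956 UMIs in AS and 11745680 in MTZ-treated, with medians of 1358 and 1641 UMIs per cell. The libraries shared 209 barcodes, of which 2 were stromal in both. Apoe, the gene disrupted in these mice, stood at 13.4 counts per 1000000 UMIs (CPM) in AS stromal cells, 12.3 in MTZ-treated and 9.35 in MTZ-preventive, but at 1057 in the Healthy library, a level that did not match the genotype on its label. No result here rests on that library.

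The compartments held 146 endothelial cells, 206 fibroblast cells and 60 smooth muscle cells in AS, and 643, 1582 and 833 in MTZ-treated. Their markers matched their names: outside the rule genes, endothelial cells carried Egfl7 at 1382 CPM in AS and 1183 in MTZ-treated, fibroblast cells Col1a2 at 2612 and 3764, and smooth muscle cells Tagln at 18944 and 25446 (Egfl7 is an endothelial secreted factor, Col1a2 a chain of type I collagen, Tagln the actin-binding protein transgelin). Marker levels were not all alike between the libraries: the endothelial markers Esam and Kdr were lower in MTZ-treated (log2 ratios to AS of -1.22 and -1.14). Many cells lay at the edge of the rules. Of the endothelial cells, those with exactly 2 UMIs of the rule genes numbered 82 in AS and 446 in MTZ-treated with cells of more than 1 rule included, and 138 and 868 stromal cells had exactly 1.

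The endothelial share of stromal cells was lower and the smooth muscle share higher in MTZ-treated. Endothelial cells were 20.8% of AS stromal cells (exact binomial interval 17.85 to 23.99) and 13.3% of MTZ-treated stromal cells (12.3 to 14.2). Smooth muscle cells were 8.55% (6.59 to 10.9) and 17.2% (16.1 to 18.3), a share 2.01 times as large. The fibroblast shares of 29.3% (26.0 to 32.9) and 32.6% (31.3 to 34.0) had overlapping intervals. Cells that met more than 1 rule were 7.27% in AS and 15.4% in MTZ-treated, and cells that met no rule were 34.1% and 21.5%. Fewer cells of a type recovered and fewer present in the tissue cannot be told apart in such shares. Cells that met more than 1 rule count in no compartment, also where they met the endothelial rule. The part of this exclusion in the lower endothelial share was not tested.

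**Figure D1:**
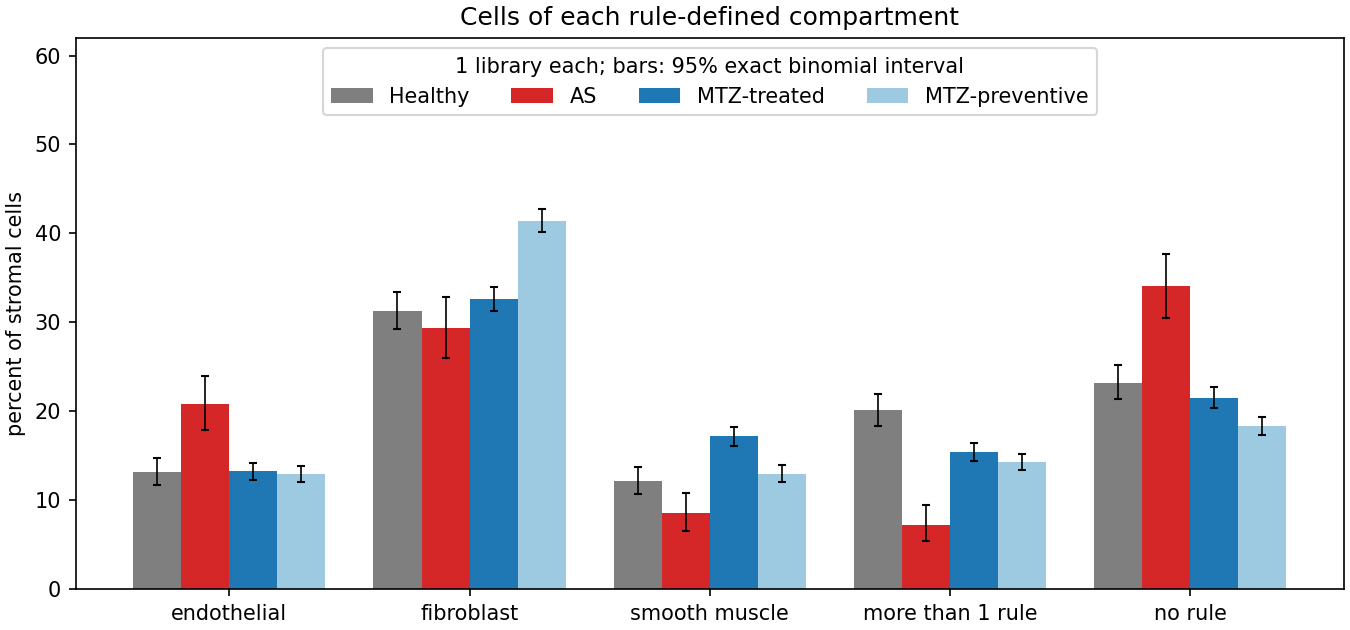
Percent of stromal cells (vertical axis) in each compartment, among cells that met more than 1 rule and among cells that met no rule, for the 4 libraries, with 95% exact binomial intervals as bars. The AS endothelial share of 20.8% stands above those of the other libraries, and its smooth muscle share of 8.55% below them.

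A gene was counted as apart when its CPM in MTZ-treated was at least 2 times, or at most 0.5 times, its CPM in AS and the 95% interval of the ratio (exact conditional binomial) left out 1, among genes at 100 CPM or more in either library. By this rule 57 of 1721 endothelial genes were higher in MTZ-treated (3.31%) and 119 lower (6.91%), 10.2% in either direction. Of 1454 fibroblast genes, 47 were higher (3.23%) and 49 lower (3.37%), 6.6% in either direction. Of 1566 smooth muscle genes, 69 were higher (4.41%) and 64 lower (4.09%), 8.49% in either direction. Over all stromal cells together, 45 of 1534 genes were higher (2.93%) and 60 lower (3.91%), 6.84% in either direction. With TMM factors, a scaling that assumes most genes to be equal between libraries, 91 endothelial genes were higher and 89 lower. Of the smooth muscle genes 95 were then higher and 46 lower. Without these factors, the median difference over all genes at that level was 0.05 on the log2 scale in endothelial, 0.13 in fibroblast and 0.03 in smooth muscle cells. TMM factors shifted the endothelial and smooth muscle medians by 0.11 and 0.13, to 0.16 and 0.15, and so away from equal levels. With 60 AS smooth muscle cells, a gene with 0 UMIs there could have been present at up to 19.4 CPM (3 UMIs of the compartment's total), against 12.5 CPM in AS endothelial and 6.07 CPM in AS fibroblast cells.

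**Figure D2:**
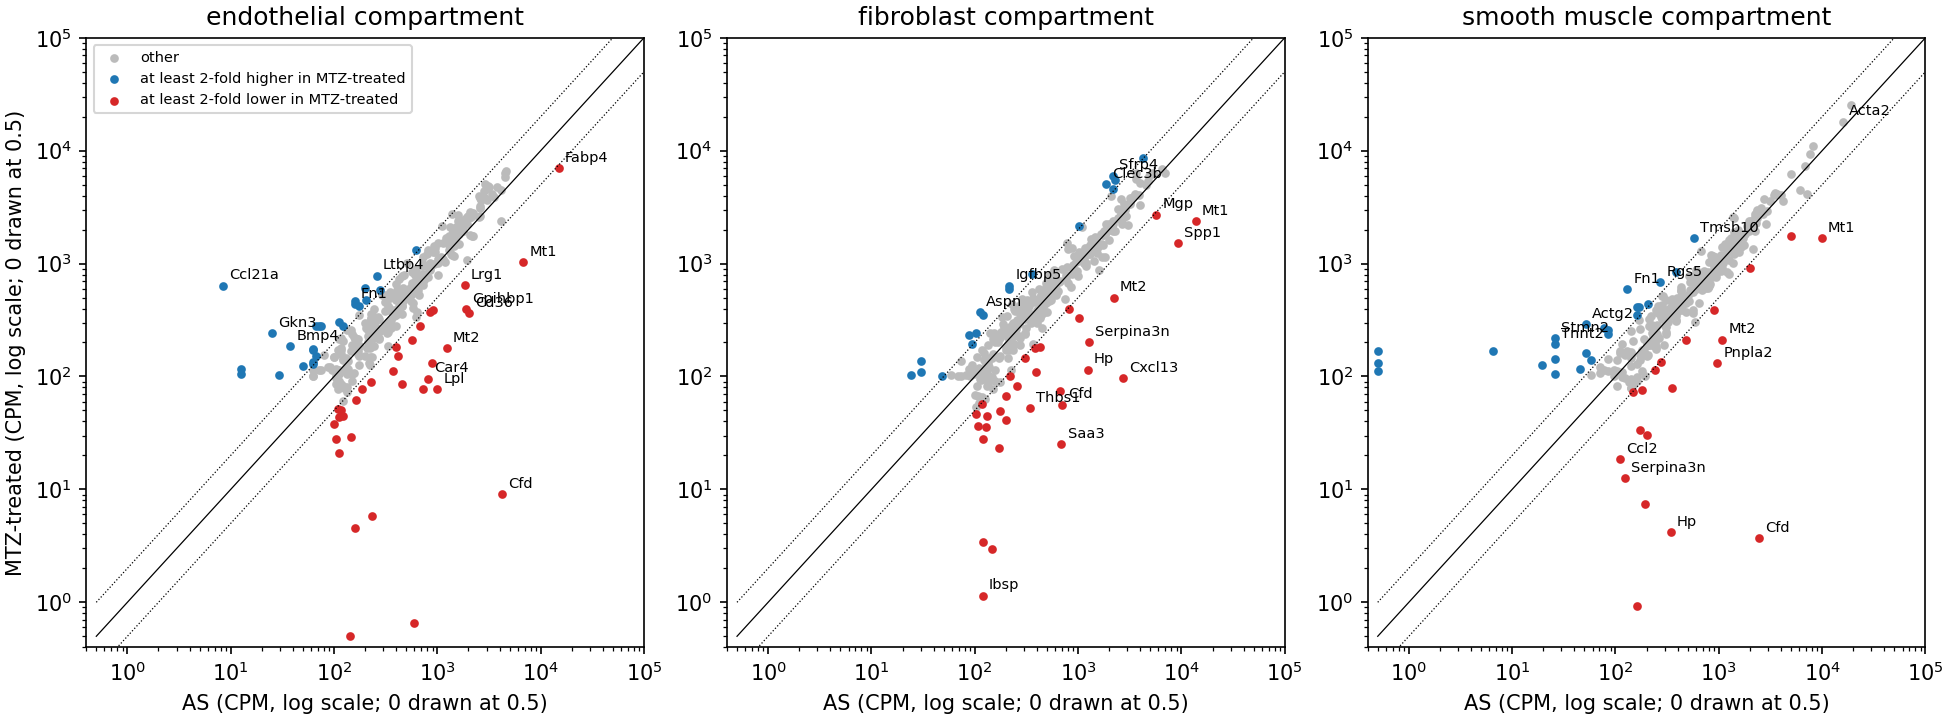
CPM in AS (horizontal axis) and in MTZ-treated (vertical axis), both logarithmic, for the listed and named genes at 100 CPM or more in either library, 1 panel per compartment. The solid line marks equal levels and the dotted lines 2-fold differences. Mt1 and Mt2 lie below the lower dotted line in each panel, and Cfd lies farther below it in endothelial and smooth muscle cells than in fibroblasts.

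Only 6 genes were lower in MTZ-treated by this rule in all 3 compartments: Mt1, Mt2, Serpina3n, Lrg1, Hp and Cfd. A single gene, Dbp, was higher in all 3. Each of these genes is described next, beginning with the metallothioneins.

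The metallothionein genes Mt1 and Mt2 were several-fold lower in MTZ-treated than in AS in every compartment. Mt1 stood at 6731 CPM in AS endothelial cells and 1031 in MTZ-treated, which is 6.53-fold lower (interval 6.09 to 7.004). In fibroblasts Mt1 went from 13739.9 to 2394 CPM, 5.74-fold lower (5.57 to 5.92), and in smooth muscle cells from 9866 to 1681 CPM, 5.87-fold lower (5.53 to 6.23). Over all cells of each compartment the ratio was thus of similar size in the 3 compartments, although fibroblasts held the highest level in both libraries. Mt2 was 6.93-fold lower in endothelial cells (1228 and 177 CPM), 4.43-fold lower in fibroblasts (2211 and 499 CPM) and 5.13-fold lower in smooth muscle cells (1085 and 212 CPM). Both differences were smaller in fibroblasts without Spp1, Cxcl13 or Prg4 UMIs, a restriction chosen after seeing the data. It left 96 of 206 AS fibroblasts and 1141 of 1582 MTZ-treated ones. There Mt1 was 3.45-fold lower (8390 and 2429 CPM) and Mt2 2.55-fold lower (1308 and 513 CPM). Across all stromal cells Mt1 was at 10945 CPM in AS, 1805 in MTZ-treated, 6204 in MTZ-preventive and 1170 in Healthy. The MTZ-preventive level lay between AS and MTZ-treated, and the Healthy level below both.

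The Mt1 difference was spread over the cells, though unevenly in fibroblasts. The 10% of cells with the most Mt1 UMIs held 66.5% of them in AS fibroblasts and 48.8% in MTZ-treated. In fibroblasts 97.1% of AS cells and 86.0% of MTZ-treated cells had an Mt1 UMI, with medians of 8 and 3 UMIs per cell. In endothelial cells the medians were 6.5 and 1, and in smooth muscle cells 9.5 and 2. With every cell brought to 1000 UMIs, an Mt1 UMI was found in 84.2% of AS and 46.3% of MTZ-treated endothelial cells (unthinned 89.0% and 55.8%). Leukocyte barcodes of the same libraries held Mt1 at 2749 CPM in AS and 1013 in MTZ-treated, so that the difference there had the same direction at a lower level. Whether the Mt1 RNA in leukocyte barcodes was their own was not tested. Barcodes with at least 2 Adipoq UMIs held it at 29391.7 CPM in AS (66 barcodes) and 11410.6 in MTZ-treated (9 barcodes). Among cells with 0 UMIs of the fat cell gene Cfd, an alternative added after the data were seen, Mt1 remained 2-fold or more lower in each compartment, at 5319 and 1026 CPM in endothelial, 14913 and 2383 in fibroblast and 9748 and 1684 in smooth muscle cells.

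The sequences before the annotated transcription starts of these genes are shown with matches to the element through which metals act on such genes. They are given from RefSeq (GRCm38.p6) as the 250 bases before each start on the plus strand, with matches to TGCACNC or TGCGCNC on either strand, the core of the metal response element, in capitals. The stretch of Mt1 is chr8:94178839-94179088 and that of Mt2 chr8:94172368-94172617.
Mt1: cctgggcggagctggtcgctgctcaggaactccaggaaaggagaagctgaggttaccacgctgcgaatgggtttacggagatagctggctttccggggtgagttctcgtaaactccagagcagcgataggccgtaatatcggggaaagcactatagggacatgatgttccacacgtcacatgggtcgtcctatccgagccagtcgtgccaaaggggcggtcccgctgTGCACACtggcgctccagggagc
Mt2: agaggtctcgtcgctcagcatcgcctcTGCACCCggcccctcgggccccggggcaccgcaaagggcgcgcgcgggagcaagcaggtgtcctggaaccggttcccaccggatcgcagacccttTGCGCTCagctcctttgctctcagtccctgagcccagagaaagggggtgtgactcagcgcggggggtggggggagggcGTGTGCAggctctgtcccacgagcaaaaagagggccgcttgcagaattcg
Mt1 held 1 match in this stretch, 23 bases before the start, and Mt2 held 3, at 223, 128 and 50 bases before it. At least 1 match was found in 21.4% of 32851 promoters and at least 3 in 1.26%. Counting also the 50 bases after the annotated start, Mt1 held 3 matches and Mt2 held 4, numbers reached by 1.97% and 0.517% of all promoters. The counts and positions thus depend on where the start is annotated, which was not checked here. These are matches of letters and no measurement of binding.

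Of the 13 genes listed for metallothioneins and zinc transport, Mt1 and Mt2 were the members at 100 CPM or more in the 3 compartments. Below that level, the zinc importer gene Slc39a14 stood at 66.8 CPM in AS and 11.7 in MTZ-treated endothelial cells, and at 58.7 and 14.9 in fibroblasts. The zinc exporter gene Slc30a1 stood at 16.7 and 12.4 CPM in endothelial cells, and Mtf1, which encodes the metal-sensing transcription factor, at 8.35 and 21.5, from few UMIs in AS. Of the 16 carbonic anhydrase genes listed, 2 reached 100 CPM in endothelial cells and both were lower in MTZ-treated (6.91% of all genes). Car4, a membrane-bound form of small vessel endothelium, was at 814 CPM in AS and 95.8 in MTZ-treated, 8.50-fold lower (6.83 to 10.6). Car3, a form abundant in fat cells, was at 113 and 20.9 CPM in endothelial cells and at 194 and 7.42 in smooth muscle cells. Its endothelial difference fell short of the 2-fold limit when cells with a UMI of 8 more leukocyte and fat cell genes (Tyrobp, Fcer1g, S100a9, Retnlg, Cd52, Cidec, Plin1 and Retn) were also left out (24.1 and 21.3 CPM) and among cells with 0 Cfd UMIs (31.7 and 20.5 CPM). For Car3 in smooth muscle cells no value could be given under either alternative. In fibroblasts no carbonic anhydrase gene reached 100 CPM.

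**Figure D3:**
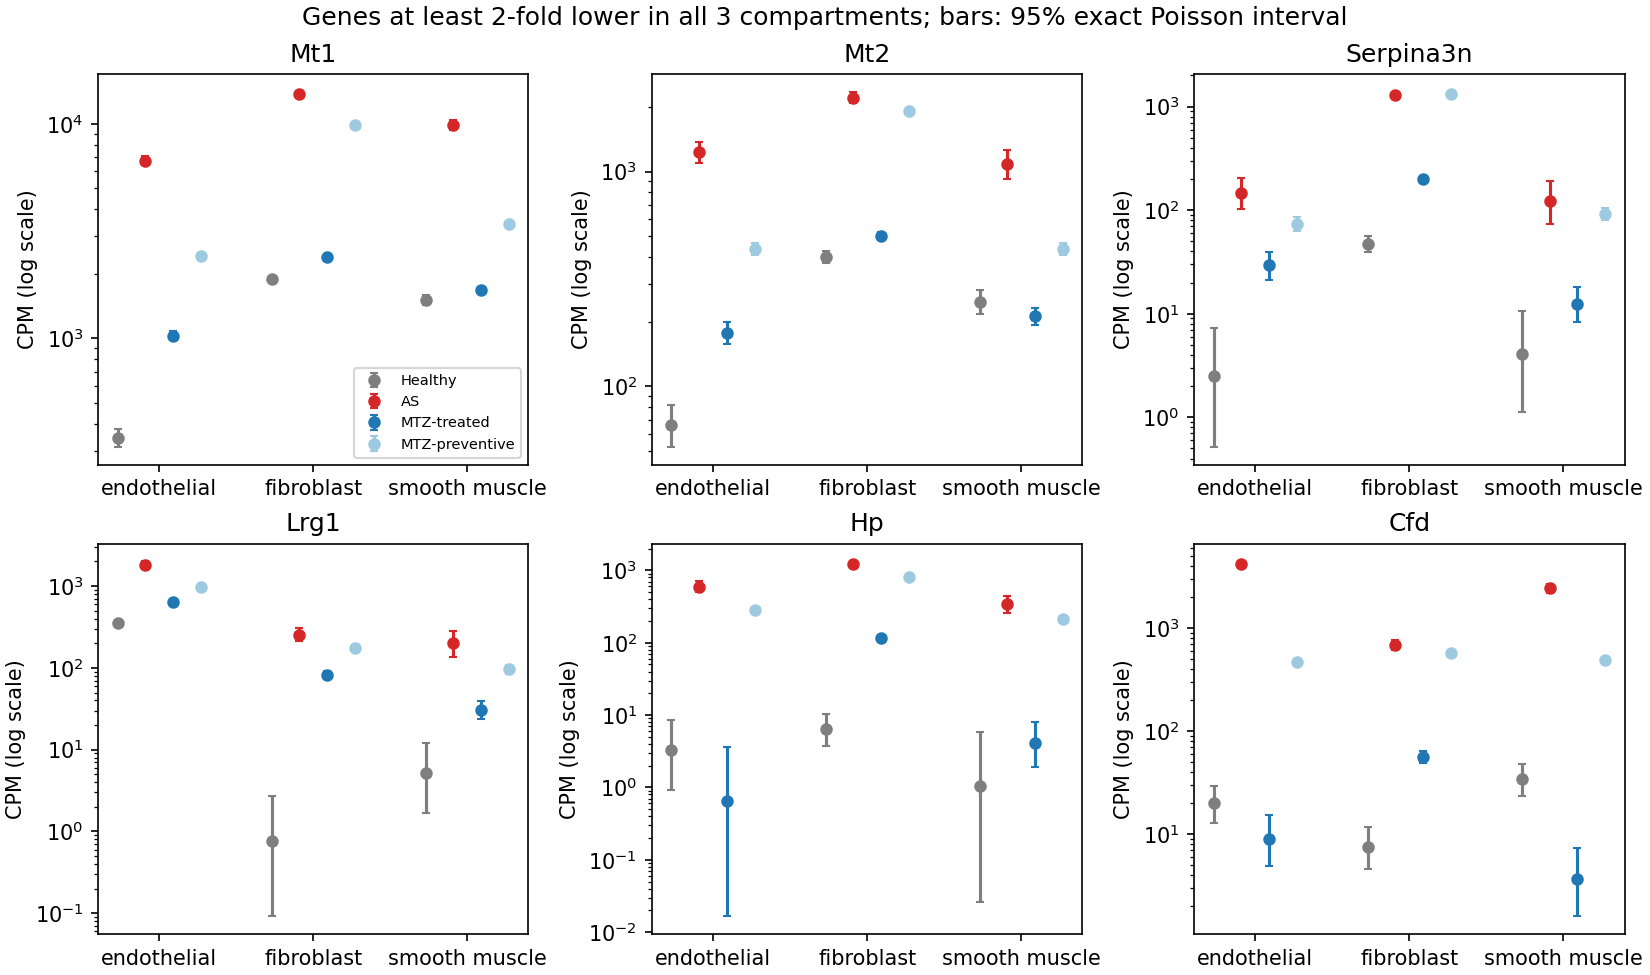
CPM (vertical axis, logarithmic) of the 6 genes that were at least 2-fold lower in MTZ-treated in all 3 compartments (horizontal axis), in the 4 libraries, with 95% exact Poisson intervals as bars. AS lies above MTZ-treated in every panel and compartment, and MTZ-preventive lies between them except for Serpina3n in fibroblasts, where it stands at 1315 CPM against 1281 in AS.

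Acute phase genes, whose products are secreted in inflammation, were mostly lower in MTZ-treated, with members in both directions in endothelial cells. In fibroblasts 6 of the 9 listed members at 100 CPM or more were lower (3.37% of all genes) and none was higher (list median -2.66 on the log2 scale, 0.13 over all genes at that level). Serpina3n, which encodes a secreted serine protease inhibitor, was at 1281 CPM in AS fibroblasts and 202 in MTZ-treated, 6.33-fold lower (5.71 to 7.02), and was found in 52.9% and 23.1% of the cells. Its level in leukocyte barcodes of AS was 28.9 CPM, far under that of fibroblasts. Saa3 (serum amyloid A) and Lcn2 (the iron-scavenging protein lipocalin) were also lower, but 1 AS fibroblast barcode held 285 of the 341 Saa3 UMIs. Lrg1, a secreted glycoprotein of activated endothelium, was at 1833 CPM in AS endothelial cells and 642 in MTZ-treated, 2.85-fold lower (2.54 to 3.20). In fibroblasts Lrg1 stood at 255 and 81.6 CPM and in smooth muscle cells at 200 and 30.6, both below the 907 CPM of AS leukocyte barcodes. Hp (haptoglobin, which binds free hemoglobin) was at 1234 and 115 CPM in fibroblasts, while AS leukocyte barcodes held it at 1278 CPM.

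In endothelial cells 4 of 7 acute phase members at level were lower (Hp, Serpina3n, Lrg1 and C3, against 6.91% of all genes) and 2 were higher (3.31% of all genes). The higher ones were Cp, which encodes the copper carrier ceruloplasmin, at 62.6 and 176 CPM, and Lbp, which encodes a lipopolysaccharide-binding protein, at 66.8 and 152 CPM. With 8 more genes excluded, C3 stood at 32.1 and 44.7 CPM and was no longer lower. In smooth muscle cells all 4 members at level were lower (Hp, Serpina3n, Lrg1 and Itih4, against 4.09% of all genes), Itih4 falling short of the limit with TMM factors (229 and 119 CPM).

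Fat cell genes were far lower in MTZ-treated. The summed neutrophil genes were lower by less, although S100a9 among them was far lower in endothelial cells and fibroblasts. Cfd, the fat cell protease adipsin, was at 4188 CPM in AS endothelial cells and 9.12 in MTZ-treated, at 692 and 56.2 in fibroblasts, and at 2442 and 3.71 in smooth muscle cells. Brought to 1000 UMIs, 39.7% of AS endothelial, 25.2% of fibroblast and 18.3% of smooth muscle cells had a Cfd UMI (unthinned 47.3%, 29.6% and 31.7%), while 35.6% of AS leukocyte barcodes did (unthinned 47.8%), at medians of 1402, 1392, 2161 and 1414 UMIs per cell. The endothelial share lay inside the leukocyte interval of 25.7 to 46.4 and the other 2 under it, so no expression of Cfd by these cells is read from the shares. The UMIs were unevenly spread, with 10 or more in 21 of 146 AS endothelial and 9 of 60 AS smooth muscle cells and up to 92 and 82 in a cell, and their source was not tested. In MTZ-treated the shares were 1.71%, 1.08% and 0.480%, and 0.870% in leukocytes. Summed over the 12 listed fat cell genes, AS stood at 4848 CPM and MTZ-treated at 57.3 in endothelial cells, at 937 and 119 in fibroblasts, and at 3185 and 145 in smooth muscle cells, with Adipoq at 0 by the rule. For the 12 neutrophil genes the sums were 948 and 433, 868 and 158, and 129 and 41.8 CPM, with S100a8 at 0 by the rule. That list includes Lcn2, given above as an acute phase gene, which made up most of the AS fibroblast sum. With TMM factors Lcn2 alone stood at 643 and 77.6 CPM in fibroblasts, and 1 barcode held 131 of its 329 AS UMIs. The neutrophil gene S100a9, also with TMM factors, stood at 225 and 6.09 CPM in endothelial cells (56 and 9 UMIs). In fibroblasts S100a9 stood at 117 and 3.55 CPM (60 and 15 UMIs). The summed B cell list stayed at or under 25.1 CPM in every compartment of both libraries. Among cells with 0 Cfd UMIs, Serpina3n stood at 71.3 CPM in AS and 29.8 in MTZ-treated endothelial cells, at 1362 and 203 in fibroblasts and at 108 and 12.1 in smooth muscle cells, and Lrg1 at 2148 and 646 in endothelial cells. Hp there stood at 71.3 CPM in AS endothelial and 35.9 in AS smooth muscle cells, under its levels of 597 and 342 over all cells of those compartments. The part of fat cell RNA in the other results was not tested.

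Dbp, an output gene of the circadian clock, was higher in MTZ-treated in all 3 compartments. It stood at 45.9 CPM in AS and 135 in MTZ-treated endothelial cells (2.94-fold, interval 1.61 to 5.97), at 80.9 and 230 in fibroblasts (2.84-fold, 2.07 to 3.995), and at 90.5 and 289 in smooth muscle cells (3.20-fold, 1.89 to 5.88). Over all stromal cells Dbp was at 65.0 CPM in AS, 205 in MTZ-treated, 127 in MTZ-preventive and 309 in Healthy. Other clock genes, looked up after Dbp had been seen, were under 100 CPM over all stromal cells of AS and MTZ-treated and lay in both directions. Hlf, a close relative of Dbp, was higher in MTZ-treated, at 3.73 and 23.8 CPM (6.38-fold, 2.70 to 19.8, from 5 AS UMIs). Per3 at 25.4 and 42.0 (1.65-fold, 1.17 to 2.41) and Nr1d2 at 44.1 and 58.0 (1.32-fold, 1.01 to 1.75) were higher too. Lower were Arntl, which encodes an activator of the clock, at 8.96 and 2.72 CPM (ratio 0.304, 0.152 to 0.648), and Npas2 at 6.72 and 1.02 (ratio 0.152, 0.0588 to 0.408), from 12 and 9 AS UMIs. The intervals of the remaining 6 held 1, among them Per1 at 73.2 and 74.3 CPM and Nr1d1 at 87.4 and 79.8. No hour of tissue collection is given in the sources used here, and its part in these values was not tested.

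In endothelial cells the genes of small vessels and of lipid uptake were lower in MTZ-treated. Of the 10 small vessel genes, all at 100 CPM or more, 6 were lower (6.91% of all genes) and none higher (list median -1.13, 0.05 over all genes at level). Gpihbp1, which anchors lipoprotein lipase on capillary endothelium, was at 1875 CPM in AS and 397 in MTZ-treated, 4.72-fold lower (4.17 to 5.34). The fatty acid receptor gene Cd36 was at 2033 and 364 CPM, 5.58-fold lower (4.93 to 6.32), and Fabp4, a fatty acid carrier, at 14998 and 7030. Timp4 (a metalloproteinase inhibitor) and Rgcc (a cell cycle regulator) were lower too, and of the lipid handling list Lpl was at 1002 and 77.5 CPM and the lipoprotein receptor gene Scarb1 at 372 and 113. In the other libraries Gpihbp1 was at 1401 CPM in Healthy and 1390.0 in MTZ-preventive, and Cd36 at 1080 and 1321, between AS and MTZ-treated. Beside these values, AS leukocyte barcodes held Fabp4 at 1447, Lpl at 309 and Cd36 at 251 CPM.

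Counted by cells, the small vessel genes were found in a smaller share of MTZ-treated endothelial cells. With every cell at 1000 UMIs, 61.6% of AS endothelial cells (53.2 to 69.6) and 34.1% of MTZ-treated ones (30.4 to 37.9) had a UMI of Gpihbp1, Cd36, Car4 or Timp4, with 59.5% in Healthy and 60.4% in MTZ-preventive (unthinned 69.2% and 45.4% for AS and MTZ-treated). Cells with a UMI of the lymphatic genes Prox1, Lyve1, Mmrn1 or Ccl21a and none of those 4 were 2.74% in AS and 9.02% in MTZ-treated. Cells with neither were 35.6% and 56.9%. Since cells were grouped by genes whose levels differed, these shares restate those levels, and fewer cells of a type cannot be told apart from less of this RNA per cell. Within cells with neither, 42 in AS and 299 in MTZ-treated, Rgcc was at 66.2 and 95.3 CPM and Scarb1 at 66.2 and 74.8, each from 4 AS UMIs and not lower in MTZ-treated, and Fabp4 was at 3575 and 2026. Mt1 was lower within each group of cells, at 5721 and 883 CPM with a small vessel UMI and at 9169 and 1339 with neither.

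**Figure D4:**
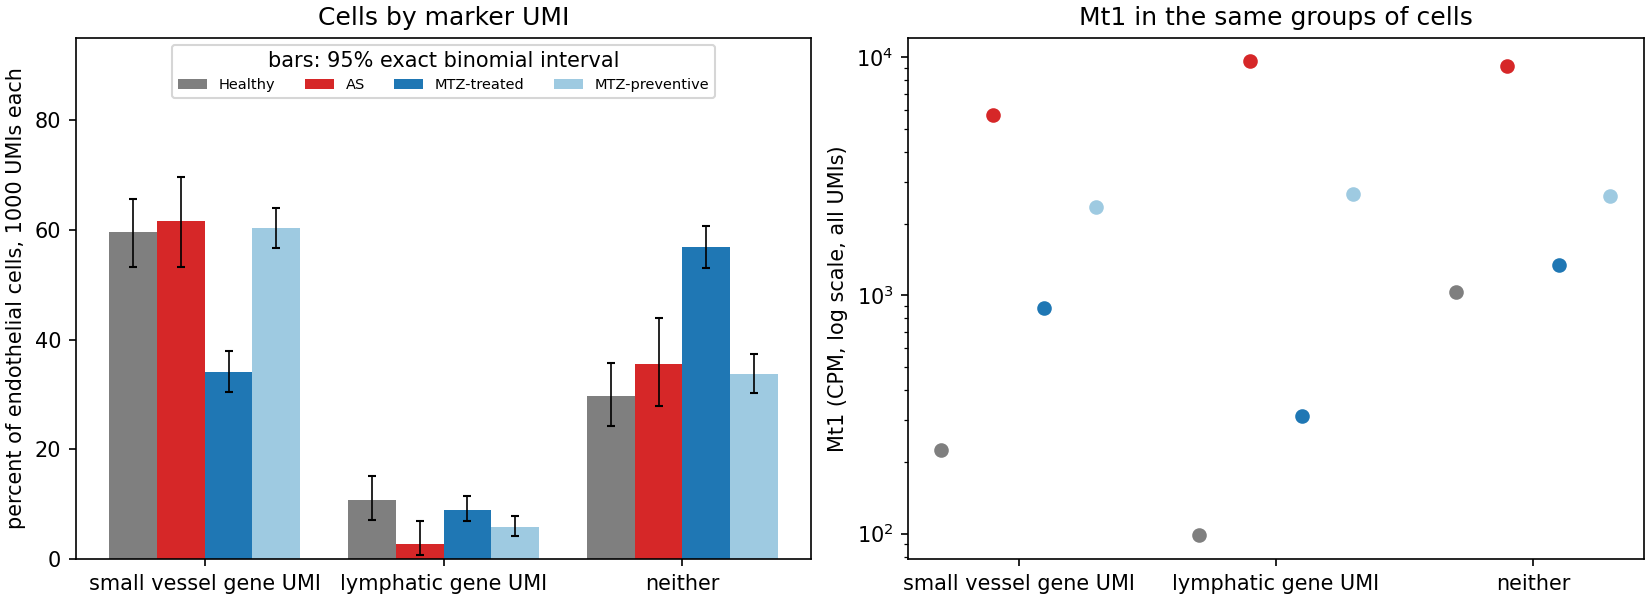
Left, percent of endothelial cells at 1000 UMIs each (vertical axis) with a small vessel gene UMI, with a lymphatic gene UMI or with neither, in the 4 libraries, with 95% exact binomial intervals as bars. Right, Mt1 in CPM (logarithmic) in cells grouped by the same genes with all UMIs counted. MTZ-treated has the smallest share with a small vessel UMI, 34.1%, and AS has the highest Mt1 level in each group.

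Among the genes higher in MTZ-treated endothelial cells (3.31% of all genes) were 2 of 6 arterial genes (Fbln2 and Edn1), 4 of 9 elastic fibre and other matrix genes (Fbln2, Ltbp4, Fn1 and Bgn) and 1 of 3 lymphatic genes (Ccl21a) at level. None of 6 collagens was higher and 2 were lower (Col4a1 and Col4a2, against 6.91% of all genes). Of the smooth muscle and fibroblast marker lists, the members past the limit in endothelial cells were Tagln, Serpinf1 and Pi16, all higher. With TMM factors they stood at 599 and 1365, 28.1 and 106, and 60.3 and 141 CPM. The part of RNA from other cell types in the endothelial values was not tested. Ccl21a, a lymphatic chemokine, had 2 UMIs in AS and 980 in MTZ-treated (8.35 and 638 CPM, 76.5-fold with an interval of 21.1 to 632); its name covers more than 1 line of the files, so the copies cannot be told apart. Gkn3 was at 25.1 and 240 CPM, 9.60-fold higher (4.37 to 26.3). The growth factor gene Bmp4 was at 37.6 and 184 CPM, the matrix genes Fbln2 at 71.0 and 281, Ltbp4 at 259 and 781, and Fn1 (fibronectin) at 159 and 437. Procr, which encodes the protein C receptor, was at 75.2 and 278 CPM, and the vasoconstrictor gene Edn1 at 113 and 302. Igfbp5, which binds insulin-like growth factors, was at 66.8 and 281 CPM but at 99.3 and 122 among cells with neither small vessel nor lymphatic UMIs, where Procr stood at 199 and 302 and Fn1 at 348 and 770.

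Of 8 endothelial adhesion genes at level 1 was past the limit, the lower Mcam, and of 11 flow-responsive genes 3 were, beside 10.2% of all genes in either direction. Mcam fell short of the limit with TMM factors (105 and 53.5 CPM) and stood at 66.2 and 73.3 CPM among cells with neither small vessel nor lymphatic UMIs. Of the other adhesion genes, Vcam1 was at 117 and 220 CPM (1.88-fold, 1.28 to 2.87) and Icam1 at 355 and 313. Of the flow-responsive genes, Edn1 and Thbd were higher and Kdr lower, and Klf4, induced by laminar flow, was at 514 and 1021 CPM, 1.99-fold and so just inside the 2-fold limit. The 17 immediate early genes at level had a list median of 0.47 and none passed the limit, while the heat shock genes Hspa1a and Hspa1b, which are nearly identical copies whose reads may be divided between them, were at 159 and 464 and at 121 and 280 CPM.

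Fibroblast differences were spread over many cells for some genes and carried by few cells for others. Clec3b (the secreted protein tetranectin) was at 1873 CPM in AS and 5067 in MTZ-treated, 2.71-fold higher (2.53 to 2.89), and was found in 62.1% and 82.7% of the cells with medians of 1 and 5 UMIs. Sfrp4, a secreted Wnt antagonist, was at 2167 and 6012 CPM, 2.78-fold higher (2.61 to 2.95). Aspn (asporin) was at 111 and 370 CPM, Postn (periostin) at 217 and 590, Igfbp5 at 217 and 639, Dpt (dermatopontin) at 358 and 812, and Mfap5 (a microfibril protein) at 1022 and 2164. These are genes of the collagenous and elastic matrix and its regulators, and Sparc, a collagen-binding protein, was at 4262 and 8591 CPM. In fibroblasts without Spp1, Cxcl13 or Prg4 UMIs, a restriction chosen after seeing the data, Clec3b, Aspn and Dpt were still past the 2-fold limit. Postn there stood at 448 and 591 CPM, Sparc at 6157 and 7587, Sfrp4 at 2948 and 5175, Mfap5 at 1047 and 1982 and Igfbp5 at 291 and 557, all short of the limit.

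The fibrillar collagens of the collagen list stayed within the 2-fold limit. Col2a1 was counted with the bone and cartilage genes below. Of 13 collagens at level 2 were lower (3.37% of all genes) and none higher (3.23% of all genes). The lower ones were the basement membrane genes Col4a1 (382 and 178 CPM) and Col4a2 (221 and 101 CPM). Col3a1 was at 3597 and 6315 CPM, 1.76-fold higher (1.67 to 1.84), and Col1a2 at 2612 and 3764, 1.44-fold higher (1.36 to 1.53). Of 21 elastic fibre and other matrix genes 4 were higher (Mfap4, Postn, Mfap5 and Sparc) and 3 lower (Thbs1, Lox and Ccn2), beside the same shares of all genes. Ccn2 fell short of the limit with TMM factors (788 and 408 CPM). Thbs1, the matricellular protein thrombospondin, was at 340 and 52.6 CPM, 6.46-fold lower (5.27 to 7.92), and Lox, which cross-links collagen and elastin, at 176 and 49.8. Ltbp2, a latent TGF-beta binding protein, was at 388 and 110 CPM.

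Bone and cartilage genes at level were mostly lower in fibroblasts, with few cells behind them. Of 7 osteochondrogenic genes at level 5 were lower (Ibsp, Spp1, Clu, Col2a1 and Mgp) and 1 was higher (Cytl1). Over all fibroblast genes 3.37% were lower and 3.23% higher. With TMM factors Mgp fell short of the limit (5518 and 2814 CPM). Spp1, which encodes the mineral-binding protein osteopontin, was at 9267 CPM in AS and 1522 in MTZ-treated, 6.09-fold lower (5.86 to 6.32), against 16.6 in Healthy and 130 in MTZ-preventive. A single AS barcode held 3104 of the 4581 Spp1 UMIs, and 5 AS cells and 25 MTZ-treated cells had 10 or more, that is 2.43% and 1.58% of the fibroblasts. That barcode had the most UMIs of all AS fibroblast cells (18866) and also held 1076 of the 2822 Mgp UMIs and 63 of the 99 Col2a1 UMIs. Without the highest barcode of each gene in each library, Spp1 was at 2988 and 1178 CPM, Mgp (an inhibitor of calcification) at 3532 and 2543, and Col2a1 (cartilage collagen) at 72.8 and 47.1. Spp1 remained more than 2-fold apart by this measure, but 1 further AS barcode held at least 1000 of its remaining UMIs, so this difference too rested on 1 barcode. Ibsp (bone sialoprotein) had 59 UMIs in AS, all in 2 cells.

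Cxcl13, a chemokine that attracts B cells, was at 2709 CPM in AS and 97.4 in MTZ-treated fibroblasts, 27.8-fold lower (24.9 to 31.1). It was found in 15.5% and 4.74% of the cells, and in 13 cells of each library at 10 or more UMIs, and without the highest barcode it stood at 2053 and 88.0 CPM. In MTZ-preventive it was at 2996 CPM, above AS. Of the 8 chemokines at level the neutrophil chemokine gene Cxcl2 was the other one lower, at 202 and 40.9 CPM, beside 3.37% of all genes. The interferon-induced gene Ifitm1 was at 170 and 23.1 CPM, and Isg15, another one, at 95.1 and 193. The remaining 8 of 10 interferon-stimulated genes at level did not pass the limit, beside 6.6% of all genes past it in either direction. Of the hypoxia and glycolysis list, Vegfa (107 and 36.6 CPM) and Ddit4 (117 and 57.2 CPM) were the members past the limit, both lower, beside 3.37% of all genes. Ddit4 fell short of the limit with TMM factors (113 and 59.1 CPM) and with 8 more genes excluded (92.3 and 54.7). In fibroblasts without Spp1, Cxcl13 or Prg4 UMIs both fell short, Vegfa at 75.6 and 38.5 CPM and Ddit4 at 139.5 and 72.1.

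**Figure D5:**
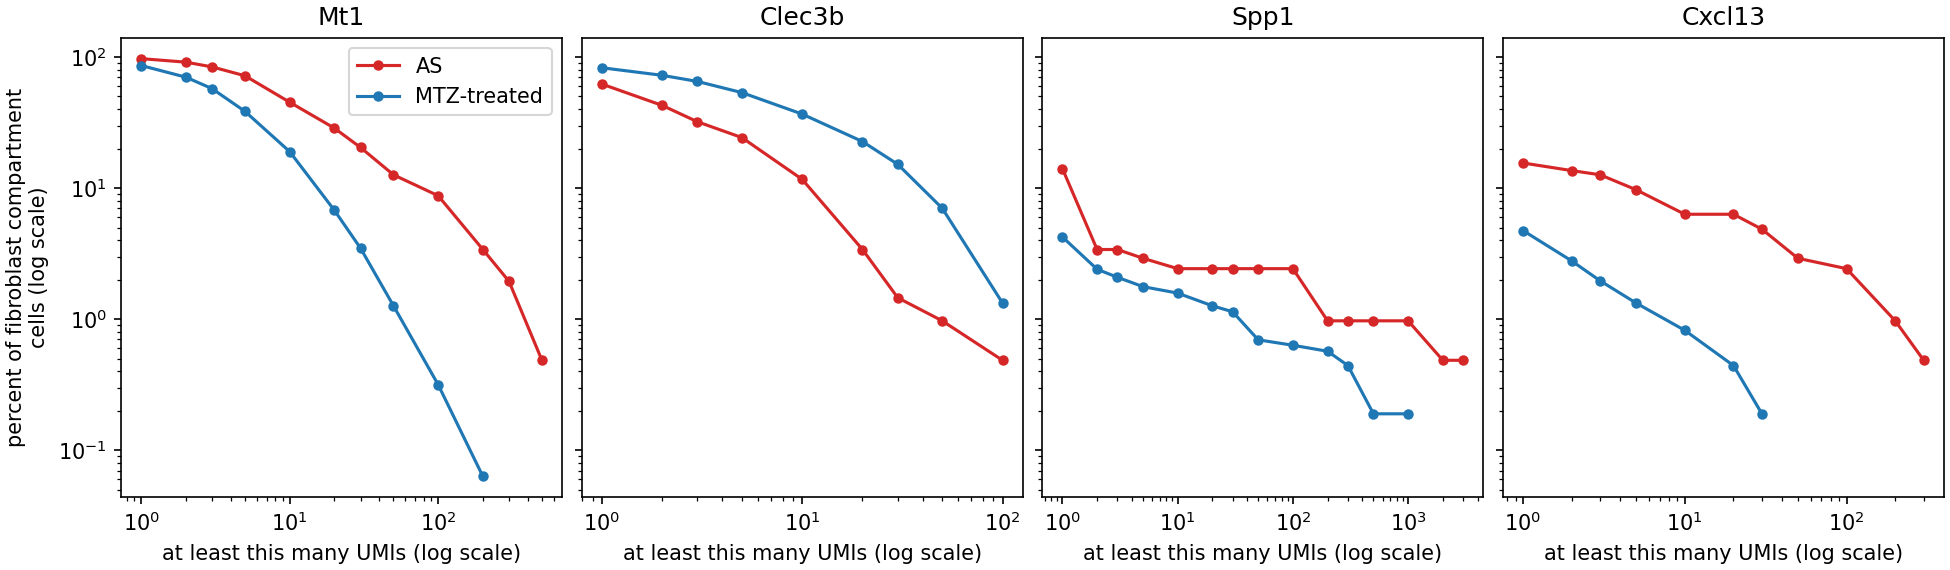
Percent of fibroblast compartment cells (vertical axis, logarithmic) with at least a given number of UMIs (horizontal axis, logarithmic) of Mt1, Clec3b, Spp1 and Cxcl13 in AS and MTZ-treated. The Mt1 and Clec3b curves are apart over all cells, while the Spp1 curves beyond 10 UMIs rest on 5 AS and 25 MTZ-treated cells.

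Of the 20 contractile genes of smooth muscle, all at level, 2 were past the limit upward (4.41% of all genes) and none downward, with a list median of 0.19 (0.03 over all genes at level). Actg2, a smooth muscle actin of viscera, was higher at 51.7 and 291 CPM, 5.63-fold (2.84 to 13.1), and the other member past the limit, Cnn1, belongs to the rule that chose the cells. Acta2 was at 15895 and 18072 CPM, Myl9 at 6894 and 7356, and Mylk, the kinase that triggers contraction, at 1053 and 985. Des (desmin) was at 562 and 363 CPM.

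In MTZ-treated smooth muscle cells 3 of 9 elastic fibre and other matrix genes at level (Fn1, Ltbp4 and Postn) and 2 of 6 collagens (Col1a2 and Col3a1) were higher and none lower, beside 4.41% of all genes higher. Fn1 was at 129 and 597 CPM, 4.62-fold higher (2.98 to 7.59), and was found in 18.3% and 41.3% of the cells. Col1a2 was at 77.5 and 268 CPM, Col3a1 at 162 and 352, Ltbp4 at 84.0 and 239, and Postn at 58.2 and 140. Col1a2 and Col3a1 also belong to the fibroblast marker list. The part of RNA from other cell types in these smooth muscle values was not tested. With looser limits on cells (more than 500 UMIs and less than 20% mitochondrial UMIs), Fn1 stood at 532 and 643 CPM, Col1a2 at 184 and 335, Ltbp4 at 147 and 278 and Col3a1, in the opposite direction, at 549 and 476, and with 8 more genes excluded Col3a1 stood at 198 and 360. Tnnt2 (cardiac troponin T) was at 25.8 and 193 CPM, from 4 AS UMIs. Rgs5, a regulator of G protein signalling found in mural cells, was at 271 and 687 CPM, with 24 of its 42 AS UMIs in 1 barcode. With 8 more genes excluded Rgs5 stood at 369.8 and 700 CPM, short of the limit. Tmsb10 (an actin-binding thymosin) was at 575 and 1671 CPM, and 1 barcode held 754 of its 3602 MTZ-treated UMIs. In cells without UMIs of Stmn2, Syt1, Slc6a2, Rtn1 or Pcsk1n, Tmsb10 stood at 597 and 1286 CPM and Rgs5 at 123.5 and 704.2. Nr4a2, an immediate early receptor gene, was at 25.8 and 142 CPM from 4 AS UMIs, and the heat shock genes Hspa1b, Hspe1 and Hspa1a were 3.05-fold, 2.58-fold and 2.45-fold higher.

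The nerve genes that ranked at the top in smooth muscle cells rested on 1 barcode. Syt1, Slc6a2 and Rtn1 had 0 UMIs in AS and 366, 285 and 239 in MTZ-treated, at least 8.76-fold, 6.82-fold and 5.72-fold higher against the limit of 3 UMIs, and a single MTZ-treated barcode held 362, 281 and 231 of them. The same barcode held 331 of the 362 Pcsk1n UMIs and 341 of the 469 Stmn2 UMIs. It was the largest of the compartment, with 64248 UMIs and 8624 genes, carried 128 UMIs of Th and 156 of Dbh (enzymes of catecholamine synthesis) and met the rule with 5 UMIs of Myh11 and 1 of Cnn1. Without the highest barcode of each gene, Syt1, Slc6a2, Rtn1 and Pcsk1n were too low in MTZ-treated for a fold against AS.

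Lower in MTZ-treated smooth muscle cells, beside the genes already given, were Pnpla2 (a lipase of lipid droplets, 969 and 131 CPM), Mgst1 (a glutathione transferase, 349 and 78.4 CPM), Ccl2 (a monocyte chemokine, 110 and 18.6 CPM), Socs3 (a feedback inhibitor of cytokine signalling, 905 and 389 CPM) and Igfbp4 (2009 and 913 CPM). Ccl2 rested on 17 UMIs in AS. Fabp4 was at 5007 and 1763 CPM.

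Cells that met no rule had the largest share of genes apart. Of 1674 genes at level 168 were higher (10%) and 105 lower (6.27%). Genes of catecholamine-producing and nerve cells were nearly absent in AS: Npy (neuropeptide Y) had 1 UMI in 239 AS cells and 2751 in 1044 MTZ-treated cells (3.06 and 1519 CPM), Th had 0 and 546, and Dbh 0 and 474. Th was at 978 CPM in Healthy and 1135 in MTZ-preventive cells of this kind. In AS, cells of no rule held Cfd at 10513 CPM, against 46.9 in MTZ-treated. These cells are part of the stromal total, and Pcsk1n, Npy, Rtn1, Prph and Uchl1 were among the 10 genes highest in MTZ-treated over all stromal cells. Single barcodes held much of their UMIs in the MTZ-treated total. The highest barcode held 840 of 2869 UMIs for Npy and 603 of 3000 for Pcsk1n. For Prph it held 370 of 1575, for Uchl1 429 of 2802 and for Rtn1 254 of 1251.

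Housekeeping groups gave a scale for these values. Of the 76 ribosomal protein genes at level none passed the limit in any compartment, with list medians of 0.33 in endothelial, 0.05 in fibroblast and 0.11 in smooth muscle cells. Of the nuclear genes of the respiratory chain none passed in endothelial cells (69 at level) or fibroblasts (67), and 1 was higher and 1 lower in smooth muscle cells (77).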

How the data were processed

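Single-cell 5 prime gene expression libraries were prepared from pooled aortas, and per the file headers the deposited count matrices were made by the authors with Cell Ranger 5.0.0; the submitters' processing notes also name STAR and mouse build mm10. The values are raw UMI counts per gene and barcode, not normalized. The fold changes and percentages given here were computed from these counts; no authors' fold changes were used. Cells were kept by the limits on genes, UMIs and mitochondrial share; no doublet caller was run, and the study's further filters (genes per UMI, red blood cell genes, doublet removal) were not applied. For each library and compartment, the UMIs of a gene in its cells were added and scaled to 1000000 in all (CPM). Ratios carry exact conditional binomial intervals, levels exact Poisson intervals and shares exact Clopper-Pearson intervals at 95%; these cover counting error only. For the shares given at 1000 UMIs, each cell was drawn down to that number. The other shares of cells with a UMI count all UMIs and were not matched for depth. Fibroblast cells had medians of 1392 UMIs in AS and 1670 in MTZ-treated. Leukocyte barcodes were those with at least 5 UMIs of Ptprc, Cd79a, Cd3d, Lyz2 and S100a8 together and none of Adipoq or of the compartment genes (90 in AS, 115 in MTZ-treated). Named genes were the 10 highest and 10 lowest per set of cells, ranked by the interval limit nearest 1 among genes at 100 CPM or more, leaving out immunoglobulin, T cell receptor, mitochondrial, hemoglobin and unnamed genes and the 13 rule genes, together with members of 43 gene lists. The cells, members and lists were chosen with earlier results of these data known. Receptor contig files were used only as a check: a B cell receptor contig was found for 1 of 702 AS and 4 of 4850 MTZ-treated stromal barcodes, and a T cell receptor contig for 0 and 6. The comparison was tested on simulated counts, where 100% of 200 genes changed 3- or 4-fold were recovered in endothelial cells and 97.5% in smooth muscle cells. Those counts were drawn independently, as the intervals assume, so recovery past the 2-fold limit was nearly fixed in advance. UMIs clumped in single barcodes and differences between libraries were not simulated. Python 3.11.15, scipy 1.17.1 and, for TMM factors as an alternative, edgeR 4.0.16 were used. Some items are not reported here. Promoter sequences came from RefSeq (GRCm38.p6).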

Additional observations from a re-analysis of the deposited data

Results flagged for a closer look

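Among the named and listed genes, 8 differed between MTZ-treated and AS in opposite directions in different compartments. For each, both counting intervals left out equal levels and at least 1 of the differences was past the 2-fold limit. Other genes were not searched for this. Whether the compartments differed was not tested, since each group is 1 library. Unless CPM is named, values are log2 ratios of MTZ-treated to AS. Fn1 was 1.46 in endothelial and 2.21 in smooth muscle cells but -0.26 in fibroblasts. Ccl2 was 0.65 in fibroblasts and -2.57 in smooth muscle cells, there from 17 AS UMIs. Cp was 1.49 in endothelial cells and -0.67 in fibroblasts, and Lbp 1.18 and -0.35. Clu, which encodes the secreted chaperone clusterin, was 0.31 in endothelial cells and -1.64 in fibroblasts. Nr4a2 was 2.45 in smooth muscle cells and -0.57 in fibroblasts. Mgp was at 1382 CPM in AS and 2763 in MTZ-treated endothelial cells, and its log2 ratio was 0.90 in smooth muscle cells and -1.07 in fibroblasts, and Serpine2, which encodes a protease inhibitor, was 0.62 in smooth muscle cells and -1.22 in fibroblasts. Without the highest barcode of each gene the fibroblast values were -0.47 for Mgp and -0.85 for Serpine2. No group held enough libraries for a check of single libraries against the rest.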

How the results depend on the processing

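No paired analysis was possible because each group is 1 library and the result comes from no test, and no library could be left out. Counting intervals hold no variation between mice, and 60 AS smooth muscle cells limit that compartment most. The counts of genes higher and lower in MTZ-treated were 45 and 60 over all stromal cells, 57 and 119 in endothelial, 47 and 49 in fibroblast and 69 and 64 in smooth muscle cells. Among genes at 300 CPM or more they became 15 and 24, 16 and 45, 20 and 25, and 14 and 18, and with no minimum level 576 and 594, 205 and 470, 233 and 456, and 190 and 303, as fewer or more genes were counted. For the other moves the cause was not tested. Without the exclusion by the 7 genes, 90 were higher and 113 lower over all stromal cells, 87 lower in fibroblasts and 126 lower in smooth muscle cells. The endothelial count of higher genes was 91 with TMM factors, 91 when mitochondrial, hemoglobin and ribosomal protein genes were left out of the totals, and 94 with 8 more genes excluded. Alternatives chosen after seeing the data gave 105 endothelial genes higher among cells with 0 Cfd UMIs and 89 without the highest barcode of each gene, which left 32 lower in fibroblasts and 35 in smooth muscle cells. Fibroblasts without Spp1, Cxcl13 or Prg4 UMIs had 76 higher and 82 lower, and looser limits on cells 29 higher. Thinned cells gave 121 lower in smooth muscle. The log2 ratio of endothelial shares went from -0.65 to -0.30 without the exclusion, and that of fibroblast shares, 0.15 with an interval that held 0, to 0.42 with looser limits, -0.13 with 8 more genes excluded and -0.12 with 0 Cfd UMIs. Under these alternatives 1584 values of named genes stayed inside their main counting interval and 562 moved outside it, beside the 10 that follow. For 200 named values the direction turned in 10 instances: among cells with 0 Cfd UMIs for Car3 over all stromal cells (0.95) and endothelial Vegfa (0.29); in endothelial cells with neither small vessel nor lymphatic UMIs for Mcam (0.15), Rgcc (0.53) and Scarb1 (0.18); in the restricted fibroblasts for Cytl1 (-0.48) and Igfbp3 (0.41); for endothelial C3 with 8 more genes excluded (0.48) and Pi16 without the exclusion (-0.37); and for smooth muscle Col3a1 with looser limits (-0.21). In 16 instances no value could be given, among them Syt1, Slc6a2, Pcsk1n and Rtn1 in smooth muscle cells without the highest barcode.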

Other observations

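Of 11 complement genes at 100 CPM or more in fibroblasts 3 were lower in MTZ-treated (3.37% of all genes) and none higher. They were Cfd and Clu, already given, and C7, a component of the membrane attack complex, at 303 CPM in AS and 146 in MTZ-treated. C7 fell short of the 2-fold limit with TMM factors (293 and 151 CPM), with 8 more genes excluded (266 and 150) and in fibroblasts without Spp1, Cxcl13 or Prg4 UMIs (174 and 152). C3, the central complement component, was at 1806 and 1152 CPM there and did not pass the limit. In smooth muscle cells Serping1, the inhibitor of the first complement component, was at 485 and 209 CPM, and with 8 more genes excluded at 379 and 205, short of the limit. In endothelial cells 3 of 6 genes of the insulin-like growth factor system were higher (Igfbp5, Htra1 and Igf2, against 3.31% of all genes) and none lower. Igf2 fell short of the limit with 8 more genes excluded (80.3 and 123 CPM), and among cells with neither small vessel nor lymphatic UMIs Igf2 stood at 99.3 and 163 CPM and Igfbp5 at 99.3 and 122. In fibroblasts Igfbp3 was at 119 and 28.1 CPM, but at 23.3 and 30.8 in those without Spp1, Cxcl13 or Prg4 UMIs.

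Of the TGF-beta and BMP signalling genes at level in smooth muscle cells, none of 5 passed the limit. Of the NF-kB feedback and cytokine genes, Socs3 in smooth muscle cells was the single member past the limit, and Nfkbia, which encodes an inhibitor of NF-kB, was at 1196 and 1015 CPM in fibroblasts and 2167 and 1762 in endothelial cells. No listed gene of mesothelial cells reached 100 CPM in any of the 3 compartments.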
